A study of Mus musculus with 4 samples.

Results

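EDL (extensor digitorum longus), Quad (quadriceps), Sol (soleus) and Dia (diaphragm) of C57BL/6 wild type mice (male C57BL/6J in the study's methods) were assayed by ATAC-seq, a method that uses a transposase to cut and tag accessible DNA. Described here are the genomic regions that held a peak in both EDL and Quad and in neither Sol nor Dia. They were chosen by the presence and absence of peaks: peaks of the 4 lists that overlapped by 1 bp or more were merged, and 4336 of the 53883 merged regions, 8.05%, met the rule. Frozen muscle from sedentary mice was pulverised, so nuclei of every cell type in the muscle entered the assay. Each muscle had 1 library, labelled as pooled, and the labels give neither age nor the number of animals behind it; the methods describe the mice as young adults when purchased. With 1 library per muscle no difference between muscles has a replicate check, so no p-value was computed, and the 95% intervals given below cover counting error only. Fewer nuclei of a type and less accessible DNA per nucleus cannot be told apart in such samples.

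EDL and Quad of the mouse are built mainly from fast glycolytic fibres, whereas Sol is rich in slow oxidative fibres and Dia is a continuously active trunk muscle. Fibre types differ in the myosin heavy chain they express, in their calcium handling proteins and in their fuel, and a part of this difference is set by regulatory DNA: promoters at gene starts and enhancers in introns or between genes. MEF2, E-box binding myogenic factors, SIX-family proteins, NFAT and large MAF proteins are known regulators of these genes. An accessible region is a place where such factors can bind, not evidence that they do.

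Sequences of 7 regions are shown because they combine high scores, or a fast-fibre gene, with a match to at least 1 of the motifs whose frequency differed between the EDL and Quad only regions and the Sol and Dia only regions. Letters are from RefSeq GRCm38.p6 (mm10), plus strand, and capitals mark every match on either strand to any of the 15 motifs searched. The motifs in capitals are the E-box CAGCTG, NFAT TGGAAA, NBRE AAAGGTCA (the monomer site of NR4A receptors), MARE TGCTGAC (bound by MAF proteins), RUNX AACCACA, SOX ACAATG, the GC-box GGGCGG and, by name, MEF2 and CArG.
Myh4 promoter, chr11:67237619-67237864: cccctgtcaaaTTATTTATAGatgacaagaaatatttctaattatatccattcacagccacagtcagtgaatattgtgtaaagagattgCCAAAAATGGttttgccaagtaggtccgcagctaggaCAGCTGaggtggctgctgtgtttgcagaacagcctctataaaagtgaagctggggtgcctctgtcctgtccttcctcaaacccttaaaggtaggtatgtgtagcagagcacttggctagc
Casq1 promoter, chr1:172219928-172220136: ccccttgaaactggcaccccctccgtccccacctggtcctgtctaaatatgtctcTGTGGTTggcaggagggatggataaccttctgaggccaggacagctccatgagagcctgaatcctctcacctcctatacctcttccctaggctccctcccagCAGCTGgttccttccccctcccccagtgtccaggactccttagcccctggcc
Mybpc2 intron, chr7:44523116-44523324: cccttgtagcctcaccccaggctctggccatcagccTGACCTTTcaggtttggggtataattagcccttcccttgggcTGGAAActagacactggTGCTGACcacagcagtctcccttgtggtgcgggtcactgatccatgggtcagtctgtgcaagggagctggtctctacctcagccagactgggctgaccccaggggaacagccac
Tbx15 intron, chr3:99292647-99292855: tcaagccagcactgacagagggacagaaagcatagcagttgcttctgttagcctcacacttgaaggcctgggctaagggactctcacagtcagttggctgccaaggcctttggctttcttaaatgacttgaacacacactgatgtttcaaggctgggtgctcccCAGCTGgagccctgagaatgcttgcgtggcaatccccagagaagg
Tmem38a intron, chr8:72572609-72572817: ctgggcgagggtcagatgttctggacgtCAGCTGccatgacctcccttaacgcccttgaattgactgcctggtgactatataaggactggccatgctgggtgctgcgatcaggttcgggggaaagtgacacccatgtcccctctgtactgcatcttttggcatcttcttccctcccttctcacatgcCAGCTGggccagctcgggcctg
Junb promoter, chr8:84978744-84978961: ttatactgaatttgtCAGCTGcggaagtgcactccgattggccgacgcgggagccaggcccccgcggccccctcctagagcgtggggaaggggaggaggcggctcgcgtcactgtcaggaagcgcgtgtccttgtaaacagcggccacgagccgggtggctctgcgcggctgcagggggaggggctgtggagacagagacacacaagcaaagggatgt
Ltbp4 intron, chr7:27330846-27331060: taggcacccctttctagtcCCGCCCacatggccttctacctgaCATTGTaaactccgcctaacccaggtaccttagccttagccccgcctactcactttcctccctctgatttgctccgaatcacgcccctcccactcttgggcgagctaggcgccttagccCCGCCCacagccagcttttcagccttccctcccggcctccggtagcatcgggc

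The deposited annotation gives Myh4 as the nearest gene of its promoter region and names the transcript of Myhas, an RNA antisense to myosin heavy chain genes, at that promoter. The Myh4 promoter region, at the gene of the fastest myosin heavy chain, held a MEF2 match at base 12, a CArG match at base 90 and an E-box at base 127, counted from its left end. Casq1, which encodes the main calcium-binding protein of the fast sarcoplasmic reticulum, had an E-box at base 158. The region in the first intron of Mybpc2, the fast myosin-binding protein C gene, had no E-box but an NBRE match at base 37, an NFAT match at base 79 and a MARE match at base 96. Such matches are common: the E-box occurred in 22.7% of all 42337 merged regions outside promoters and in 12% of the 11505 promoter regions, in 200 bp at the region centre. Outside promoters the other motifs in capitals were found in 20.5% (NFAT), 10.3% (GC-box), 8.84% (SOX), 6.08% (MARE), 4.68% (MEF2), 4.27% (RUNX), 1.74% (NBRE) and 1.12% (CArG) of all merged regions. MEF2 matches were rarer at promoters, in 1.01% of all promoter regions and in 10 of 298 promoter regions of the EDL and Quad only class.

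Every one of the 4336 regions consisted of exactly 1 EDL and 1 Quad peak. These peaks were 14.4% of the 30136 EDL peaks and 10.7% of the 40337 Quad peaks. The peak score is the authors' scaled tag count, and since lists differ in threshold each score is also given as its percentile within its own list. EDL scores of these regions ran from 3.37 through a median of 5.48 to 26.2, and Quad scores from 3.46 through 6.02 to 24.8. The median percentile was 31.5 in EDL and 43.4 in Quad, so the typical region lay in the lower part of both lists. Both peaks exceeded percentile 50 in 939 regions, 21.7% (95% Wilson interval 20.5% to 22.9%), and only 0.507% of the regions exceeded percentile 90 in EDL. The Quad percentile was the higher of the pair in 71.7% of the regions.

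**Figure D1:**
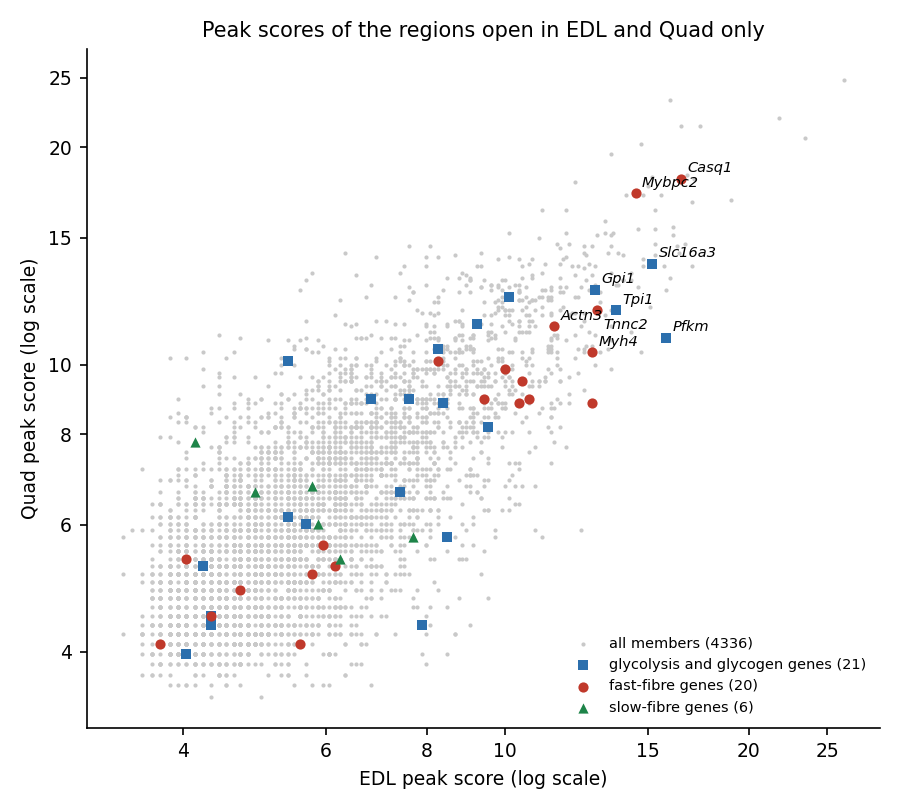
Each point is 1 of the 4336 regions open in EDL and Quad only, with its EDL peak score on the x axis and its Quad peak score on the y axis, both on log scales. Coloured points are the regions nearest to genes of the fast-fibre list (20), the glycolysis and glycogen list (21) and the slow-fibre list (6), and several of the fast-fibre and glycolytic genes sit in the upper right, up to 16.5 and 18.1 for Casq1.

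How weak peaks shaped membership was described with the 24360 regions that held a peak of both EDL and Quad. Each was placed by the lower of its percentiles in the EDL and Quad lists. Below percentile 10, 44.1% of such regions (746 of 1690) lacked a Sol and a Dia peak. The share fell in every further bin, to 14.5% between percentiles 50 and 60 and to 0.482% (13 of 2698) above percentile 90. Regions with a Sol and a Dia peak showed the same order at lower levels, from 17.4% without an EDL or Quad peak below percentile 10 to 0.101% above percentile 90. A missing Sol or Dia peak means that none was called there. The lowest listed scores were 3.06 in Sol and 3.63 in Dia, and 4303 of the 4336 regions, 99.2%, scored above the higher of these in both EDL and Quad, whereas 708, 16.3%, scored above the higher of the Sol and Dia median scores in both.

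**Figure D2:**
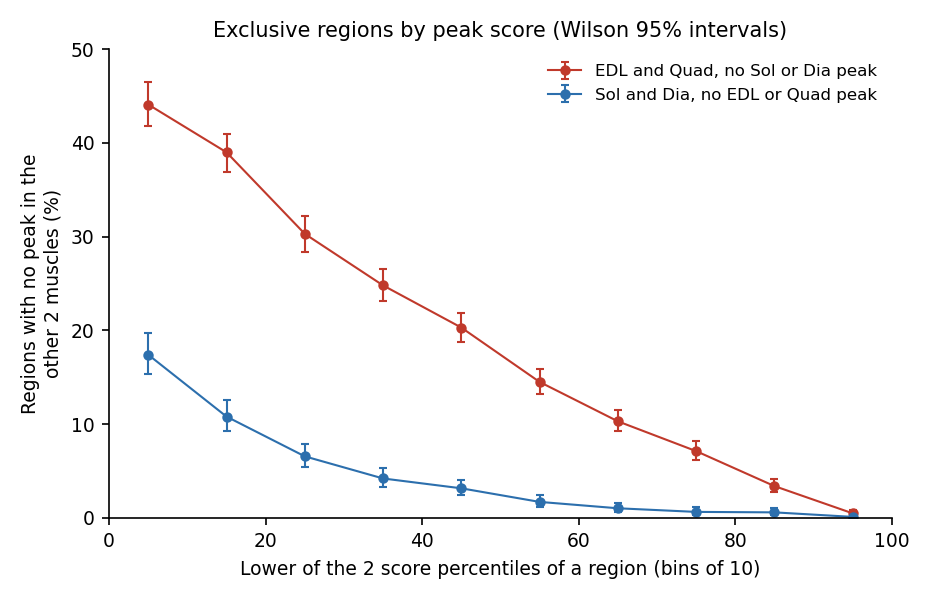
Share of the regions held by a pair of muscles that had no peak in either other muscle, against the lower of the region's 2 score percentiles in bins of 10, with 95% Wilson intervals. The EDL and Quad line falls from 44.1% to 0.482%, and the Sol and Dia line from 17.4% to 0.101%.

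The lists differ in length and in depth, which bears on all counts. Quad had the most peaks and Dia the fewest, 21582, and Sol had 28784. Below a score of 10 at least 98.0% of the scores of each list were whole multiples of 1 step within the rounding to 2 decimals, which is taken as the worth of 1 tag. The steps of EDL, Quad, Sol and Dia were 0.0962, 0.1281, 0.0956 and 0.1007, so that 1 tag weighed the most in Quad, the least deeply sequenced library if all were scaled to 1 total. By the same steps the weakest EDL peak of an EDL and Quad only region held 35 tags and the median one 57, and in Quad the numbers were 27 and 47. The reverse class, open in Sol and Dia only, had 649 regions, 1.20% of all. The part of list length in this contrast of 4336 and 649 was not tested, and when every list was cut to its 20000 strongest peaks the classes held 1691 and 1112 regions.

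Genes of the fast contractile apparatus were among the nearest genes of these regions. The fast-fibre list of 20 genes had 140 merged regions, of which 20 were open in EDL and Quad only, 14.3% (95% Wilson interval 9.44% to 21.0%), beside 8.05% over all regions. Of its 20 genes 10 had at least 1 such region, beside 19.3% of the 16876 genes that were nearest to any region. This gene share also depends on how many regions a gene has. By the same measure the slow-fibre list, at 30.0% of its genes, was above 19.3% too. Its 20 regions had a median lower percentile of 68.2, beside 28.0 over all 4336. Regions nearest to 1 gene are not independent of each other.

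Among structural genes of this list, the Myh4 promoter region scored 12.8 in EDL and 10.4 in Quad, at percentiles 84.3 and 76.4. The nearest Sol peak lay 16804 bp away and the nearest Dia peak 73677 bp away. Casq1 scored 16.5 and 18.1, 137 bp upstream of its start, but Sol and Dia peaks lay 371 and 379 bp from it, and Casq1 had another promoter peak in each of those lists. Mybpc2 scored 14.5 in EDL and 17.3 in Quad, Tnnc2 (fast troponin C) 13.0 and 11.9, and Actn3 (the alpha-actinin of fast fibres) 11.5 and 11.3, all in the first intron. No Sol or Dia peak was assigned to Actn3, and the nearest lay 1306 bp away. Myl1, which encodes the fast essential light chains, had a promoter region with scores of 10.7 and 8.96 and an intronic one with 12.8 and 8.84. Promoter peaks were also called for Myl1 in Sol and Dia, for Tnnc2 in Sol and for Mybpc2 in Dia. The Tnnc2 region lay 576 bp from a Sol peak. All of these structural regions lay above percentile 50 in both lists.

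The regulators on the fast-fibre list had more regions but lower scores. Maf, a large MAF factor linked to fast glycolytic fibres, had 5 regions of its 30, between 66828 and 468021 bp from its start, with EDL scores from 3.75 to 10.5 and Quad scores from 4.1 to 10.1. Tbx15, a transcription factor gene of glycolytic fibres, had 4 of 18, including its promoter with scores of 10 and 9.86. Tbx15 had a promoter peak in EDL and in Quad and none in Sol or Dia. Sox6, the repressor of slow-fibre genes, had 3 intronic regions with EDL scores from 4.04 to 4.71, and Eya1, a cofactor in myogenesis, had 1 with scores of 5.58 and 4.1.

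The remaining 10 genes of the list, which include Myh1, Pvalb and Atp2a1, had no region of this class. Myh1, the gene of the IIX myosin, had a single peak, in Quad, with a score of 9.35. Pvalb, the fast-fibre calcium buffer parvalbumin, had a Quad promoter peak with a score of 12.7 and an EDL peak with a score of 10.8 at -5215 bp from its start, which did not overlap. Myh2 had a region shared by EDL, Quad and Sol and another shared by EDL, Quad and Dia. The Acta1 promoter, the skeletal actin gene, was open in EDL, Quad and Dia, with scores of 16.7, 17.8 and 10.1. Myh7, the slow myosin, had peaks in Sol alone, with scores of 7.93 and 7.17.

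Slow-fibre genes lay near fewer of these regions, with weaker peaks. Of the 101 regions nearest to slow-fibre genes, 6 were open in EDL and Quad only, 5.94% (2.75% to 12.4%), an interval that overlaps that of the fast-fibre list and includes the 8.05% of all regions. They lay nearest to Casq2 (the slow and cardiac calsequestrin), Ankrd2, Myoz2, Ppargc1a (PGC1α, the coactivator of oxidative genes), Esrrb and Pln (phospholamban), 1 each. None of the 6 was at a promoter and none had both percentiles above 50. Their median lower percentile was 35.1. The whole slow-fibre list had 67 peaks in Sol, 42 in EDL, 54 in Quad and 33 in Dia, while the fast-fibre list had 62, 74, 101 and 39 in the same order.

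**Figure D3:**
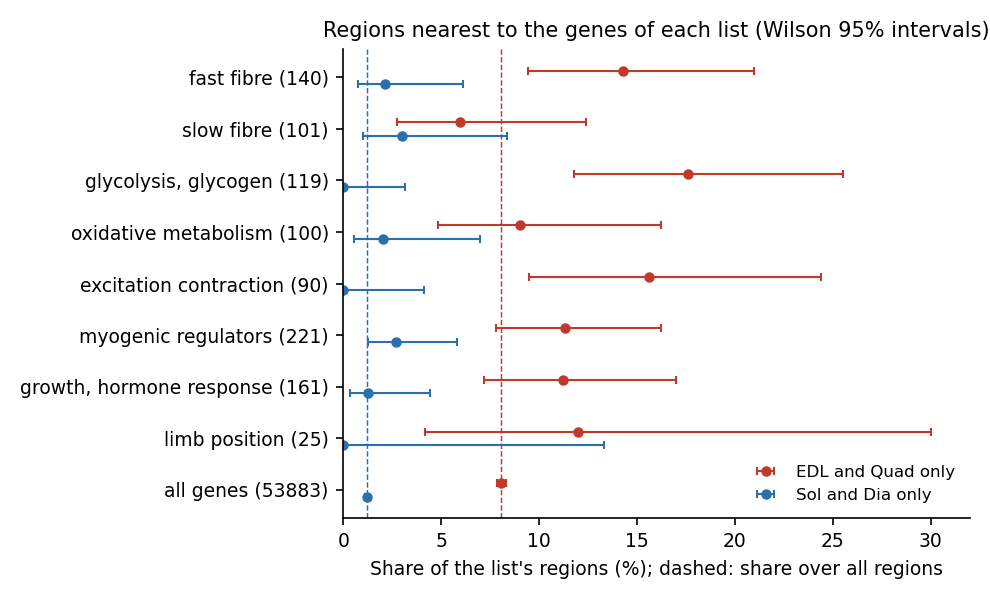
Share of the merged regions nearest to each gene list that were open in EDL and Quad only or in Sol and Dia only, with 95% Wilson intervals; the number of regions is in brackets and dashed lines mark the shares over all regions, 8.05% and 1.20%. Among the 8 lists shown, which leave out the cell type markers, the glycolysis and glycogen list has the highest share, 17.6%, and the slow-fibre list the lowest, 5.94%, and many intervals overlap.

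Glycolysis and glycogen genes had 21 regions of 119, 17.6% (11.8% to 25.5%), and 14 of the 25 genes had at least 1. None of the 119 was open in Sol and Dia only, beside 1.20% over all regions. If a count of 0 is taken to allow up to 3, the share could reach 2.52%, and the Wilson upper limit was 3.13%. None of the 21 was at a promoter and none lay within 500 bp of a Sol or Dia peak. Along the pathway they covered Hk2 (hexokinase, 3 regions), Gpi1, Pfkm (muscle phosphofructokinase), Aldoa, Tpi1, Gpd1, Pgk1 and Pkm. The intronic Pfkm region scored 15.8 in EDL and 10.9 in Quad, at percentiles 90.6 and 78.4, and the Tpi1 region 13.7 and 11.9. Slc16a3 encodes the lactate exporter MCT4, and its first-intron region scored 15.2 and 13.8. Of the 14 genes, 9 had a promoter peak in all 4 lists, and Slc16a3 had a promoter peak in none.

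Genes of excitation and contraction coupling had 14 of 90 regions, 15.6% (9.50% to 24.4%). None of the 90 was open in Sol and Dia only, beside the same 1.20%. A count of up to 3 would be 3.33%, and the Wilson upper limit was 4.09%. Cacna1s, the voltage sensor of the T-tubule, had 3, including its promoter with scores of 10 and 8.84. Its promoter and that of Cacnb1, the channel's beta subunit (7.41 and 9.22), had a peak in EDL and in Quad and none in Sol or Dia. Scn4a, the muscle sodium channel, had 3 of its 5 regions in this class, 1 of them 6 bp from a Sol peak, and no Dia peak was assigned to it. Jph2, a junctophilin that ties the T-tubule to the sarcoplasmic reticulum, scored 14.3 and 13.1 in its first intron.

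Oxidative metabolism genes had 9 of 100 regions, 9% (4.81% to 16.2%), close to the share over all regions. Fabp3, the muscle fatty acid binding protein, had 2, including its promoter with scores of 7.12 and 6.15, and neither Sol nor Dia had a Fabp3 promoter peak. Cd36 and Lpl, for fatty acid uptake, and Ucp3 had 2 each, and Acadm had 1. Only 2 of the 9 had both percentiles above 50.

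The intervals of the following lists include the 8.05% of all regions. Myogenic regulators had 25 of 221 regions, 11.3% (7.78% to 16.2%). Mef2a, Tead1 and Eya4 had 4 each, Nfatc2 had 3, and Mef2c and Hdac4 had 2 each. None was at a promoter, and only 5 had both percentiles above 50. Growth and hormone response genes had 18 of 161, 11.2% (7.19% to 17.0%). Ddit4, a stress-induced mTORC1 inhibitor, had 3. Akt2, a kinase of insulin signalling, had 2, of which its promoter scored 11.1 and 12.7, and Klf15 had 2. Cebpb had no other merged region than 1 of this class, in its exon, with scores of 12.2 and 12.4. Foxo1 and Trim63, of the atrophy program, had 1 each. Of the 25 regions of limb position genes 3 were in the class (4.17% to 30%), nearest to Pitx1, Tbx4 and Hoxc8, with the highest lower percentile at 24.

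Markers of cell types were counted to set beside these groups and beside the 8.05% of all regions. The muscle fibre markers had 5 regions of 50 (4.35% to 21.4%), among them 3 of Mylk2, the skeletal muscle myosin light chain kinase, and 2 assigned to Ttn. Promoter peaks were present for 6 of the 8 fibre markers in EDL and Quad and for 5 in Sol and Dia. The 8 lists for other cell types had between 1 and 6 regions each, from 6.67% of the Schwann cell list's 15 to 28.6% of the leukocyte list's 7, all with wide intervals. Endothelial markers had 6 of 80, 7.50% (3.48% to 15.4%), and 6 of the 8 genes had a promoter peak in EDL and Quad, 7 in Sol and 2 in Dia. Fibroblast markers had 5 of 36, 13.9% (6.08% to 28.7%), with Col1a1 and 2 each for Col1a2 and Col3a1, and promoter peaks were called for Col1a2 in EDL and Quad, for Dcn in Sol and for no gene of the list in Dia. Ptprc and Adgre1, defining leukocyte genes, had 1 region each with percentiles from 7.89 to 15. Thbs4, a tendon gene, had 3, its only merged regions, so by the rule no Sol or Dia peak was assigned to it. These were all of the tendon list's 3 of 14 (7.57% to 47.6%). The other tendon genes had 0 of 11, and Scx and Comp had peaks in Sol and Dia. Over all genes of the leukocyte and tendon lists no promoter peak was called in EDL, Sol or Dia. The part of other cell types in the class was not tested.

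The strongest regions more than 500 bp from any Sol or Dia peak lay largely at genes outside the lists. Of the 20 strongest, ranked by the lower of their EDL and Quad percentiles, 2 lay at Junb, which encodes an AP-1 subunit: its promoter, with scores of 17.4 and 21.4, and its 3′ end, with 14.8 and 17.2. The promoters of Trip10 (16.5 and 21.4), Akt1s1 (15.6 and 17.2), Ndrg2 (14.1 and 17.2), Tcap (15.7 and 13.7) and Ppp1r10 (13.8 and 14.3) were also among them. Of these genes, Akt1s1 and Ndrg2 had a promoter peak in Sol or Dia, and the nearest Sol or Dia peak lay 529 and 561 bp away. Akt1s1 encodes PRAS40, an inhibitory partner of mTORC1, and Ppp1r10 a nuclear regulator of protein phosphatase 1. Tcap, whose product caps titin at the Z-disc, had another region at its 3′ end (16.4 and 14.3) that the annotation assigned to the neighbouring Pnmt.

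Other muscle genes in this group of 20 were reached through introns and exons. Mylk2 scored 16.1 and 15.5 in exon 3, and Tmem38a, a cation channel of the sarcoplasmic reticulum, 14.8 and 13.7. A region in intron 67 of Ttn scored 16.7 and 14.7, 132211 bp from the start of Plekha3, its nearest gene by the annotation. Zbtb16, a zinc-finger factor gene, scored 14 and 14.2 in intron 3, and Ltbp4, a latent TGFβ binding protein, 14.3 and 13.4. The other members were nearest to A330009N23Rik, 1600014C23Rik, Tnfaip2, Fem1a and Kdm6b (a histone H3K27 demethylase gene), beside the Mybpc2 and Slc16a3 regions given above. All 20 had both scores at or above 13.4.

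Promoter regions were few. They made up 298 of the 4336, and in 204 of these, 68.5% (63.0% to 73.5%), the gene had no promoter peak in Sol or Dia. Of the 204, 183 also had no Sol or Dia peak within 500 bp. Among the 204 whose gene had no Sol or Dia promoter peak, the 10 strongest by the lower percentile were at Anapc15, Junb, Trip10, Tcap, Ppp1r10, Klf11, the Gm16537 and Cox14 pair, Vdac1, Zmiz1 and Hes1, the Notch target. Anapc15 was the strongest, with scores of 23.5 and 20.6, yet a Dia peak lay 145 bp from it. Klf11 (13.5 and 19.6) had a Dia peak at 179 bp. The Vdac1 region (13.3 and 15.8) directly adjoined a Sol peak. Hes1 (12.2 and 13.3) lay 884 bp from the nearest Sol peak. Thus 3 of the 10 had a Sol or Dia peak within 500 bp.

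The 4336 regions were spread over 3262 nearest genes, of which 2501 had 1 region, 533 had 2 and 228 had 3 or more. No gene had more than 6. The 7 genes with 6 were Ccdc6, Tmx1, Sorl1, Arid1b, Cops8, A330074K22Rik and Mir1904, and Rnf150, D1Ertd622e and H2afy were the genes with 5 that had the fewest regions in all. Rnf150 had 5 of its 8 regions in the class and D1Ertd622e 5 of 9. None of these 10 genes had a region open in Sol and Dia only, a class that held 1.20% of all merged regions. The 10 were picked by their counts in the EDL and Quad only class. Ccdc6 had 11 EDL, 12 Quad, 4 Sol and 3 Dia peaks, and by the rule each of its 6 regions of the class added to the EDL and Quad counts alone. Of all 16876 genes nearest to a region, 3262, 19.3%, had an EDL and Quad only region and 614 a Sol and Dia only region. Both classes were found at 248 genes, 7.60% of the 3262 and 40.4% of the 614. These shares also depend on how many regions a gene has.

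Intronic regions were assigned to their host gene through the transcript named in the annotation, which worked for 2191 of 2197. In 68.1% of these the host was also the nearest gene by start site. Pde4d and Rora held 7 each, of 43 and 47 intronic regions, and Mir466o, Nav2 and Rnf150 held 6 each, of 17, 24 and 11. Of all 20969 intronic merged regions, 2197 were in the class. Rora encodes a nuclear receptor and Pde4d a cAMP phosphodiesterase. Among the hosts of 5 was Deptor, an inhibitor of mTOR, with 5 of 13.

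Most regions stood alone. With gaps of up to 20 kb allowed, 3350 of the 4336, 77.3%, had no neighbour of their class, and 232 lay in 73 runs of 3 or more, a description made after the data were seen. The longest runs held 5 regions each. They lay at D1Ertd622e on chromosome 1, at Scn4a and the adjoining Cd79b on chromosome 11, at Mafa and Zc3h3 on chromosome 15 and at Slc6a6, the taurine transporter gene, on chromosome 6. The Slc6a6 run spanned 30.0 kb and held 6 merged regions. By the rule 5 of them had no Sol or Dia peak, and the remaining region had none either. A run of 4 over 22.0 kb lay at Capn3, the muscle calpain gene, and another over 29.0 kb at Smad3, which transmits TGFβ and myostatin signals. Autosomes held between 7.06% (chromosome 14) and 8.95% (chromosome 11) of their regions in the class, and the X chromosome 5.49% (4.09% to 7.34%).

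The regions lay mostly away from start sites. Introns held 2197, 50.7% (49.2% to 52.2%), and intergenic DNA 1588, 36.6% (35.2% to 38.1%). Promoters held 6.87% (6.16% to 7.66%), exons 1.78%, 3′ UTRs 1.31% and transcription end sites 1.85%. The median distance to the nearest transcription start site (TSS) was 22186 bp, 43.1% lay between 10 and 50 kb from it and 26.9% farther than 50 kb. Among intronic regions 33.0% were in the first intron.

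Position relative to genes was compared with that of 4 other classes. The promoter share was 5.45 percentage points lower than in the Sol and Dia only regions (12.3%, 80 of 649), a difference of -5.45 with a Newcombe interval of -8.30 to -3.01. Against the 1980 regions of Quad and Sol only the difference was -5.40 (-7.08 to -3.82), against EDL and Sol only -2.28 (-4.24 to -0.55), and against the 14497 regions of all 4 muscles -45.50 (-46.58 to -44.36). Among regions of a single muscle the promoter share was 7.22% (6.42% to 8.11%) in EDL only, 7.4% (6.95% to 7.88%) in Quad only and 5.75% (5.12% to 6.46%) in Sol only, so a low share was not particular to the EDL and Quad only class. The intron share was higher than in each of the 4 classes, by 5.51 points against EDL and Sol only (2.25 to 8.75), 7.06 points against Sol and Dia only (2.94 to 11.11), 6.12 against Quad and Sol only (3.47 to 8.76) and 28.95 against all 4 muscles (27.32 to 30.58). The intergenic share differed from Sol and Dia only by -2.51 points, with an interval of -6.58 to 1.44 that includes 0, and from EDL and Sol only by -4.57 (-7.79 to -1.40). Promoter share rose with score inside the class, from 3.69% of regions with a lower percentile up to 25 through 6.85% to 13.5% above 50, and was below that of Sol and Dia only in each tier, 8.05%, 11.5% and 37.8%. When peaks up to 500 bp apart were joined, the promoter difference from Sol and Dia only was -1.25 points, with an interval of -3.77 to 0.72.

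**Figure D4:**
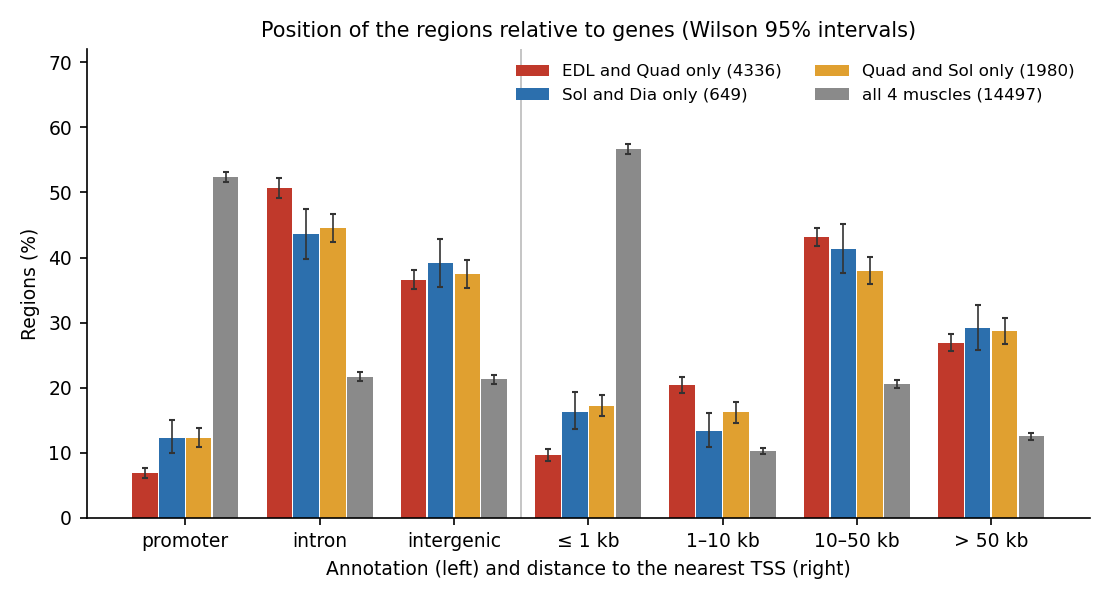
Share of regions by annotation (left) and by distance to the nearest TSS (right) for the classes open in EDL and Quad only, Sol and Dia only, Quad and Sol only and all 4 muscles, with 95% Wilson intervals and class sizes in the key. The EDL and Quad only class has the lowest promoter share of the 4 shown, 6.87%, and the highest intron share, 50.7%.

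The distance to the nearest Sol or Dia peak was measured for each region. A Sol or Dia peak lay within 500 bp of 393 of the 4336 regions, 9.06% (8.24% to 9.95%), within 10000 bp of 51.7%, and at a median distance of 9460 bp. Among promoter regions 29.5% had one within 500 bp, beside 7.55% of the others. In the Sol and Dia only class 21.4% (18.4% to 24.7%) had an EDL or Quad peak within 500 bp. The EDL and Quad peaks of a region overlapped by a median of 159 bp, and 207 regions, 4.77%, rested on an overlap under 50 bp. At the edge of the rule, the regions at Fgf18, Vdac1 and 0610040F04Rik touched a Sol or Dia peak without overlap, with EDL scores of 5.39, 13.3 and 4.14. Just outside it, regions at Plin4, A730013G03Rik and Mir6937 were left out by overlaps of 1, 2 and 2 bp, with EDL scores of 15.4, 7.6 and 9.72. On the other edge, the Spred2 region was kept by an overlap of 1 bp between its EDL and Quad peaks.

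Among non-promoter regions, the promoter of the nearest gene was open in all 4 lists for 37.9% (36.4% to 39.4%) of the EDL and Quad only class. The share was 37.8% for Sol and Dia only, 37.4% for Quad and Sol only and 36.0% for all regions, and these intervals overlap. Protein-coding genes were nearest to 83.1% of the class and to 85.0% of all regions.

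Sequence was compared in 200 bp at the centre of the 4038 non-promoter regions, with 569 of Sol and Dia only, 1735 of Quad and Sol only and 6893 of all 4 muscles. The E-box was present in 25.3% (24% to 26.7%), beside 9.21% of equal windows 2000 bp downstream. MEF2 matches were in 6.19% and 1.81% of the same windows, and AP-1 matches (TGANTCA) in 11.2% and 5.62%. These motifs of muscle and stress-response factors were more frequent at the regions than beside them. The downstream windows had a lower mean GC content, 45.9% beside 51.4%. Other classes showed such an excess too: for the E-box it was 16.09 points here, 16.13 in Quad and Sol only, 15.18 in all 4 muscles and 8.77 in Sol and Dia only. NFAT matches were in 19.1% and 18.2%, a difference of 0.89 points (-0.81 to 2.59), and SOX matches were less frequent at the regions, at 6.12% and 9.36%.

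Between classes, 5 of the 15 motifs differed from Sol and Dia only by more than counting error, without adjustment for the number of motifs. The E-box was more frequent by 4.75 points (1 to 8.15; 25.3% beside 20.6%), NBRE by 1.69 (0.38 to 2.49; 2.75% of regions beside 1.05%) and the glucocorticoid response element GRE by 1.23 (0.16 to 1.80; 1.76% beside 0.527%). NFAT matches were less frequent, with a difference of -5.31 points (-9.19 to -1.74), and so were SOX matches, with -6.01 (-9.03 to -3.46; 6.12% beside 12.1%). Windows 2000 bp downstream also held NBRE more often, in 1.21% of the class and 0.352% of Sol and Dia only. The NBRE excess over these windows was 1.54 points (0.93 to 2.16) in the class and 0.70 (-0.38 to 1.96) in Sol and Dia only, with overlapping intervals. NBRE and SOX kept their direction in the comparisons with both other classes. NBRE differed by 1.54 points from Quad and Sol only (0.76 to 2.23) and by 1.11 from all 4 muscles (0.54 to 1.72), and SOX by -4.83 (-6.54 to -3.24) and -2.25 (-3.23 to -1.25). For GRE and NFAT the intervals of both other comparisons included 0. The same held for the E-box, with differences of -0.28 (-2.76 to 2.14) and 0.49 (-1.19 to 2.18).

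MEF2 did not differ from Sol and Dia only beyond counting error (-1.01 points, -3.54 to 1), nor did MARE, the SIX-family motif TCANNTTTC or ERR (the estrogen-related receptor site TCAAGGTCA, which shares AAGGTCA with NBRE). MARE was more frequent than in Quad and Sol only by 2.94 points (1.55 to 4.21) and than in all 4 muscles by 2.29 (1.31 to 3.31), and the SIX-family motif by 1.49 (0.18 to 2.69) and 1.69 (0.82 to 2.60). The GC-box was in 7.38% of both the EDL and Quad only and the Sol and Dia only regions, but in 19.4% of the regions of all 4 muscles. Base composition followed the GC-box: mean GC content was 51.4% in the class, 51.6% in Sol and Dia only and 54.9% in all 4 muscles. The share with an E-box was 24.6% for regions with a lower percentile up to 25 and 28.3% (25.3% to 31.5%) above 50. Repeats masked in the reference covered 7.77% of the bases of these windows and 25% of those 2000 bp downstream. The remaining motifs, TEAD (CATTCC), RUNX, CArG and NF1, differed in none of these 3 comparisons, and AP-1 was less frequent than in Quad and Sol only (-1.91, -3.83 to -0.10) and all 4 muscles (-1.32, -2.55 to -0.06). Over all merged regions outside promoters, AP-1 matches were in 11.3%, SIX-family matches in 5.01%, TEAD in 13.5%, GRE in 1.29%, ERR in 0.472% and NF1 in 0.0354%. A match is a description of the letters in the window and does not show that a factor was bound.

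**Figure D5:**
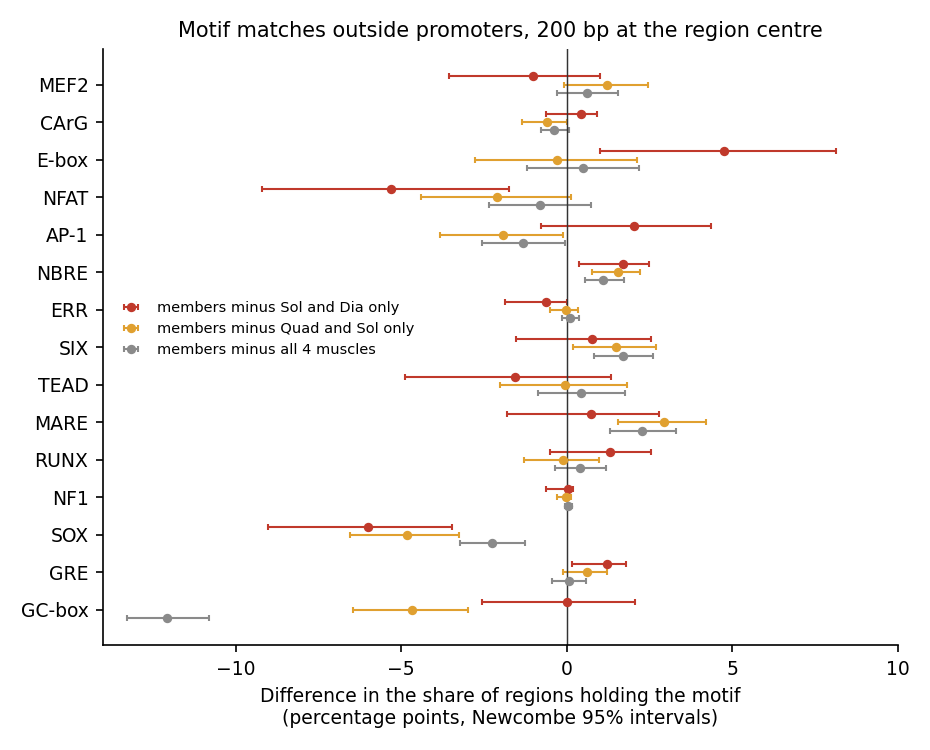
Difference, in percentage points, in the share of non-promoter regions with a motif match between EDL and Quad only regions and 3 other classes, with Newcombe 95% intervals; 200 bp at the region centre, both strands. NBRE lies above 0 and SOX below 0 in all 3 comparisons, and the interval of the E-box lies wholly above 0 only against Sol and Dia only.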

How the data were processed

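The authors aligned reads to mm10 with Bowtie2, called peaks in each library with HOMER in its factor mode and annotated each peak to the nearest TSS. The deposited score is a signal value for each peak, its tags normalised by HOMER to library size. The Tn5 offset of read ends and the treatment of mitochondrial and repeat reads are not stated in the sources used here. In the deposited annotation promoter peaks lay between -1000 and 922 bp of the TSS. Peak widths of EDL, Quad, Sol and Dia were 208, 188, 206 and 232 bp.

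Peaks of the 4 lists were merged on 1-based coordinates with both ends included. A region took its gene, annotation and distance from its peak with the highest percentile. Shares carry 95% Wilson intervals and differences Newcombe intervals, which cover counting error only. Python 3.11.15, pandas 2.3.3, NumPy 2.4.6 and SciPy 1.17.1 were used. The merge, gap and motif steps were tested on simulated data. Motifs were searched on both strands of RefSeq GRCm38.p6. Host genes came from RefSeq transcripts. Printed sequences touch no exon of GENCODE vM21, and those of Myh4 and Junb hold 22 and 5 bases of a RefSeq first exon. A Ppp1r10 region within a predicted RefSeq exon was not printed.

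The members, gene lists, motifs and alternatives were chosen with earlier results of these data known. The genes named are the 20 highest-ranked regions over 500 bp from Sol and Dia peaks, the 10 genes with the most regions, list genes with a region, the 10 strongest promoter regions whose gene lacks a Sol or Dia promoter peak, and the genes the study displays. Some list genes are not reported here by name. Genes of hosts, runs and rule edges were named after their values were seen. Alternatives were the overlap, list length, score threshold, chromosomes, promoter definition, distance and motif window, with the gene with the most regions left out of each fibre list added later.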

Additional observations from a re-analysis of the deposited data

How the results depend on the processing

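No paired analysis was possible because each muscle had 1 library. The number of EDL and Quad only regions, 4336, was 4119 when peaks had to share 50% of their length and 4159 when peaks within 500 bp were joined. It was 1691 with the 20000 highest-scored peaks per list, 2045 with the upper 50% of each list, and 949 with the upper 50% of EDL and Quad against the whole Sol and Dia lists, a count that differs from the 939 above percentile 50 because of ties. In this order of 5 settings the promoter share was 10.1%, 5.46%, 10.8%, 14.7% and 13.6%, and it was 9.59% for promoters defined as within 1 kb of a TSS. The promoter difference from Sol and Dia only kept its sign throughout, from -23.74 to -1.25 points, and its interval included 0 only when peaks within 500 bp were joined (-1.25). The share with a Sol or Dia peak within 500 bp was 21.6% with 50% overlap, 13.1% with 20000 peaks, 17.4% with the whole Sol and Dia lists, and 13.5% within 1000 bp. The fast-fibre share was 25.8% in the upper 50% of each list, beside 8.52% over all regions in that setting. It stayed between 12.8% and 18.2% otherwise, with 13.6% when Maf was left out, an alternative chosen after seeing the data. The 12.8% was with 50% overlap, beside 6.87% over all regions. The 18.2% was with the upper 50% of EDL and Quad against whole lists. It counts only list regions that held an upper 50% peak of at least 1 muscle. The 1.76% of that setting is over all 53883 merged regions, a wider base, so the 2 shares cannot be compared. The slow-fibre share was 1.28% with 20000 peaks and 0% with the upper 50% of EDL and Quad against whole lists. The share over all regions fell too, to 5.28% and 1.76% in these settings, and the slow-fibre intervals include these values. The count of 5 motif differences became 3 in the upper 50% of each list and 1 against the whole lists, where 75 Sol and Dia only regions remained for the comparison, and was 4 to 7 otherwise. In that last setting the SOX difference reversed, to 0.87 points (-9.21 to 4.40). In 9 further combinations of a motif and a setting, most of them among the upper 50% of peaks, a difference kept its sign and its interval included 0. The peaks of 1 library per muscle and the unknown number of pooled animals limit every comparison.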
